A study of Saccharomyces cerevisiae BY4741 with 4 samples.

Results

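The level of histone H3 trimethylated on lysine 4 (H3K4me3) was described over the genes of wild-type budding yeast. The members are all genes with a value for the wild-type H3K4me3 library in the deposited gene table, chromosome IX included, and these were 5218 of the 5219 genes listed. The study set out to compare H3K4me3 in strains with and without SPP1, a subunit of the complex that makes the mark, with 4 libraries: H3K4me3 precipitates of wild type and of the spp1 strain, the wild-type input, and an spp1 knockout library with no assay in its title. Only the wild-type H3K4me3 library is described here. It came from Saccharomyces cerevisiae BY4741 with the genotype MATa, his3Δ1, leu2Δ0 and ura3Δ0, grown to log phase in rich medium with 10 g/l glucose and taken at an optical density of 0.6. Fission yeast cells were added as a spike-in at 25% of the volume, chromatin was cut with micrococcal nuclease, and 10 µL of an antibody against H3K4me3 were used for the precipitation.

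In budding yeast, H3K4me3 is deposited by COMPASS, a complex built around the methyltransferase Set1, which travels with RNA polymerase II early in transcription. The mark therefore sits over the first nucleosomes of transcribed genes, is erased by the demethylase Jhd2, and is bound by PHD finger proteins of several chromatin complexes. It is widely used as a marker of active promoters, and genes that are shut off in a growth condition usually carry little of it.

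Each gene has 1 value, a normalised signal, and the text calls it the level. It was taken to be linear. The labels and headers do not state the scale, and every ratio or fraction of the median rests on that assumption. The stretch of each gene that the authors summarised, and any division by the input, are not stated in the labels or headers. There was 1 wild-type library, so no difference in the text has a replicate check, and no test was made. The 95% intervals are order-statistic intervals of medians over genes and say nothing about replicates. Read depth is unknown. Of the 5218 genes, 5115 matched an annotated gene of the RefSeq assembly R64, and the 5112 protein-coding ones among them were 85.2% of the 6002 annotated on the nuclear chromosomes. Of the 3 marker genes in the genotype, HIS3 carried a level, 1.97, and LEU2 and URA3 were not among the genes with a level.

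The landscape was flat over most genes and had a long lower tail. The median level was 2.01 (interval 2.001 to 2.024), and the middle 50% of genes lay between 1.69 and 2.24. A level within 25% of the median was found for 3964 genes, 76.0% of all. BRO1, an endosomal sorting factor gene, stood nearest to the median at 2.01. The 10th percentile was 1.09, which is 0.918 under the median, and the 90th was 2.43, only 0.413 over it. The ratio of these percentiles was 2.22 and the skewness -1.14. The median was 8.12 times the lowest level, and the highest level was 1.56 times the median. Below 0.5 times the median lay 462 genes (8.85%) and below 0.25 times 161 genes (3.09%), whereas 3 genes exceeded 1.5 times the median.

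**Figure D1:**
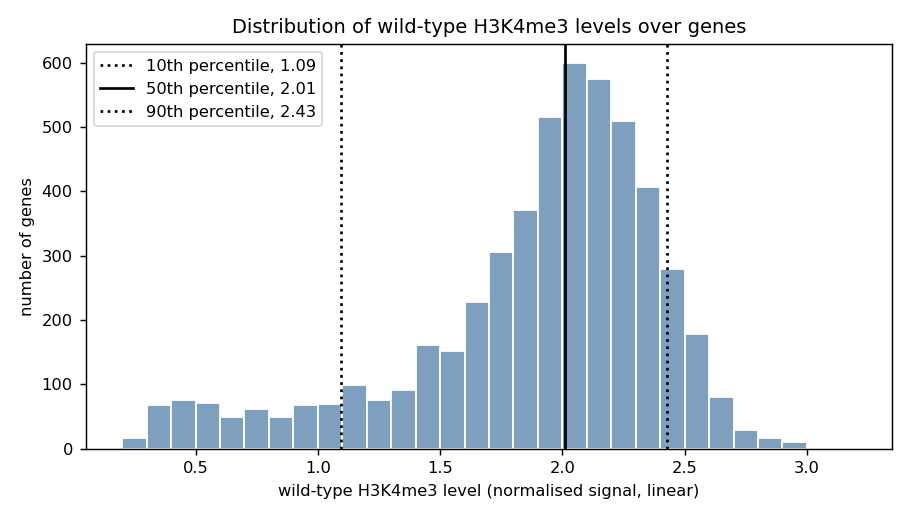
Histogram of the wild-type H3K4me3 level (x axis, normalised signal, taken as linear) over 5218 genes (y axis, number of genes). The peak near the median of 2.01 falls off steeply on the high side and runs out in a long tail towards 0.248 on the low side.

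The 15 highest levels lay between 2.91 and 3.14. UBP13, a ubiquitin protease gene on chromosome II (positions 93639 to 95882), was highest with a level of 3.14. SLY1, which encodes a partner of membrane fusion SNAREs (chromosome IV, 838392 to 840392), had 3.13. IOC2, a subunit gene of an Isw1 chromatin remodeller (chromosome XII, 329677 to 332115), had 3.04. These were the 3 genes over 1.5 times the median. UTP14 followed at 3.01 and acts in small ribosomal subunit assembly. CWC2, a splicing factor gene, and RFC4, a subunit gene of the replication clamp loader, each had 2.98. ABF2, which packs mitochondrial DNA, had 2.97, and SOG2, of a cell polarity and separation pathway, had 2.96. The other members were GLE2 (2.95), a nuclear pore and mRNA export gene, SDD3 (2.95), NPA3 (2.94), needed for RNA polymerase II assembly, DUS1 (2.93), which modifies tRNA, RFU1 (2.93), a regulator of ubiquitin recycling, LNP1 (2.91), which shapes the endoplasmic reticulum, and GID12 (2.91), of the GID ubiquitin ligase.

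The 15 lowest levels lay between 0.248 and 0.293. SFC1, a mitochondrial carrier gene used in growth on acetate or ethanol (chromosome X, 609773 to 610741), was lowest at 0.248. SIP4 (0.283), an activator of gluconeogenic genes, and ZNF1 (0.267), a transcription factor gene for respiratory growth, were also among them. HSP12 (0.258; chromosome VI, 107256 to 107585) and DDR2 (0.264) are classical genes of the general stress response. RIM4 (0.289) encodes an RNA-binding protein of meiosis, IMA5 (0.285) an isomaltase, and PDC6 (0.293) the minor pyruvate decarboxylase. HBN1 (0.273) and DPA10 (0.267) carry standard names as well. The remaining 5 have only systematic names: YMR316C-B at 0.252, YMR206W at 0.253, YCL048W-A at 0.268, YKR104W at 0.276 and YLR046C at 0.286.

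The top 10% and the bottom 10% of genes by level differed in composition. By construction each holds 522 genes, 10% of all, and that share is the background for every such count in the text. Genes with a standard name made up 96.6% of the top 10% and 75.3% of the bottom 10%, against 91.2% of all genes. Suffixed names, which mostly mark small genes annotated later, made up 1.53% and 12.8%. Genes within 20 kb of a chromosome end made up 0.383% of the top 10% and 5.94% of the bottom 10%. Median gene length was 1284 bp in the top 10% and 1056 bp in the bottom 10%.

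Gene lists from textbook pathways were placed on this scale. Of 39 lists, 31 had 6 or more genes with a level. The median of 15 lists lay above that of all genes and of 16 below it, and the interval of the difference left out 0 for 10 lists above and 8 below. The 10 upper lists all concern growth and gene expression machinery: ribosomes, their assembly, translation, transcription, nuclear pores, protein breakdown by the proteasome, and vesicle traffic. The lower lists concern glycolysis, stress, alternative carbon and nitrogen sources, anaerobic growth, and meiosis.

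**Figure D2:**
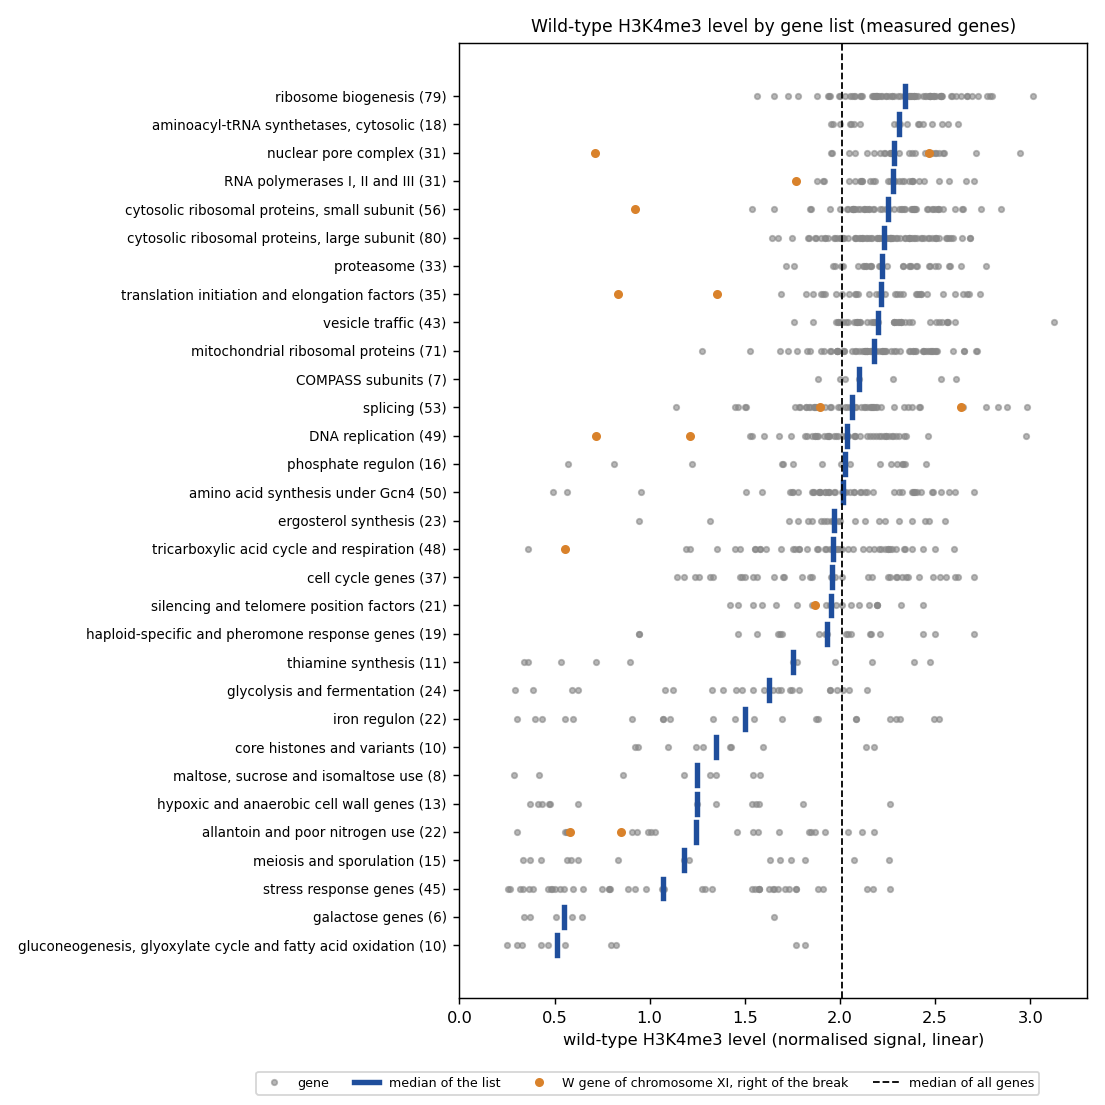
Wild-type H3K4me3 level (x axis, normalised signal, taken as linear) of each measured gene in the 31 lists with 6 or more such genes (y axis, number in brackets). List medians are blue bars, and the median of all genes, 2.01, is dashed. Lists of the growth machinery form narrow bands over the dashed line, whereas stress, galactose and gluconeogenesis genes spread far to the left; orange points are W-strand genes of chromosome XI right of the break described in the text.

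Ribosome assembly genes had the highest list median, 2.34 (2.24 to 2.40), from 79 of 81 genes. In the top 10% were 29 of these, 36.7%, and none was in the bottom 10%. UTP14 (3.01) was highest, followed by NOP58 (2.80), a box C/D snoRNP core gene, and CBF5 (2.77), the rRNA pseudouridine synthase gene. DBP7 (1.56), an RNA helicase gene, was lowest. Small-subunit ribosomal protein genes had a median of 2.25 (56 of 56 genes), from RPS21A at 0.921 to RPS16B at 2.84. Large-subunit genes had 2.23 (80 of 81), from RPL41B at 1.64 to RPL13A at 2.68. Mitochondrial ribosomal protein genes had 2.18 (71 of 75), from MRP17 at 1.28 to SWS2 at 2.72.

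Aminoacyl-tRNA synthetase genes, which charge tRNAs with amino acids, had a median of 2.31 (18 of 18), from FRS2 at 1.95 to GLN4 at 2.62. Translation factor genes had 2.21 (35 of 36), and their highest member was TIF34 (2.74), an eIF3 subunit gene. TEF4 (0.831), an elongation factor 1 subunit gene, and TIF1 (1.35), which encodes eIF4A, were lowest. TIF2, whose product is the same protein as that of TIF1, had 2.68 on the left arm of chromosome X. Subunit genes of the RNA polymerases had a median of 2.28 (31 of 31), from RPC37 at 1.77 to RPC31 at 2.70. Nuclear pore genes had 2.28 (31 of 32), and 11 of them were in the top 10%. MLP1 (0.712), a nuclear basket gene, stood far below the next nuclear pore gene, NUP159 at 1.95.

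Proteasome genes had a median of 2.22 (33 of 33), from RPN11, the deubiquitinase of the lid, at 1.71 to PRE4, a core subunit, at 2.77. Vesicle traffic genes had 2.20 (43 of 45), from BET3 at 1.76 to SLY1 at 3.13. Splicing genes (2.06, from CWC21 at 1.14 to CWC2 at 2.98) and DNA replication genes (2.03, from PRI2 at 0.721 to RFC4 at 2.98) had intervals that took in the median of all genes. The genes of COMPASS itself, 7 of 8 with a level, ran from SPP1 at 1.89 to SWD1 at 2.61, with SET1, the catalytic subunit, at 2.10. The difference of their median from that of all genes had an interval (-0.128 to 0.597) that took in 0. None of the 7 was in the bottom 10%, which says little for so few genes beside a background of 10%.

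Glycolysis and fermentation genes departed from the other abundant pathways. All 24 had a level, and their median was 1.63 (1.33 to 1.79). None was in the top 10%, 5 were in the bottom 10%, and 3 exceeded the median of all genes. TDH3, the main glyceraldehyde-3-phosphate dehydrogenase gene, had 1.33, ADH1, the main ethanol-forming dehydrogenase gene, 1.45, PDC1, the main pyruvate decarboxylase gene, 1.68, and CDC19, the main pyruvate kinase gene, 1.95. All 4 were under the median of all genes; they are known as some of the most transcribed genes in glucose. The 4 lowest of the list were PDC6 at 0.293, HXK1 at 0.388, PDC5 at 0.593 and TDH1 at 0.626. ADH4, an alcohol dehydrogenase isoform gene, was highest at 2.14.

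Histone genes had a median of 1.35 over 10 of 11 genes, with an interval (0.936 to 2.14) that took in the median of all genes. The 8 core histone genes lay between 0.921 (HTA1) and 1.59 (HTB2), whereas HTZ1, the H2A.Z variant gene, had 2.18 and HHO1, the linker histone gene, 2.14. Among all genes the core histone genes spanned percentiles 7.82 to 21.1, and HHO1 and HTZ1 stood at 64.2 and 68.5. Most genes of the table likewise lay above the core histone genes. Both core H3 genes were low, HHT1 at 0.936 and HHT2 at 1.42. These genes come in near-identical copies, as do several glycolysis, ribosomal protein and hexose transporter genes, and the treatment of reads that match several copies is not stated in the labels or headers.

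Among lists with 6 or more measured genes, those for gluconeogenesis and for galactose had the lowest medians. Gluconeogenesis, glyoxylate cycle and fatty acid oxidation genes had 0.512 (0.304 to 1.77), from 10 of 20 genes, and 8 of the 10 were in the bottom 10%. SFC1 (0.248), CRC1 (0.304), a carnitine carrier gene, and MLS1 (0.331), the malate synthase gene, were lowest. FBP1, the fructose-1,6-bisphosphatase gene, had 0.555. ICL1, the isocitrate lyase gene, at 1.77 and MDH2, the cytosolic malate dehydrogenase gene, at 1.82 stood apart from the other 8, which did not exceed 0.822.

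Of the galactose genes with a level, all but GAL80 were low. The permease gene GAL2 (0.339), the enzyme genes GAL1 (0.369) and GAL7 (0.506), the activator gene GAL4 (0.592) and the inducer gene GAL3 (0.645) were all in the bottom 10%, and GAL80, the repressor gene, had 1.66. Maltose, sucrose and isomaltose genes had a median of 1.25, from IMA5 at 0.285 to YPR196W at 1.58, and none of the 8 exceeded the median of all genes. Of 17 hexose transporter genes only 5 had a level. HXT7 (0.381), a high-affinity transporter gene, was lowest and HXT1 (1.47), the low-affinity transporter gene of high glucose, was highest.

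Stress response genes had a median of 1.07 (0.785 to 1.57), and 24 of 45 were in the bottom 10%. They ran from HSP12 at 0.258 to TPS3, a trehalose synthesis gene, at 2.26. Meiosis and sporulation genes had 1.18, but only 15 of 64, 23.4%, had a level at all. ADY3 (0.332), a gene of spore membrane formation, was lowest among them and REC107 (2.26), a recombination gene, was highest. IME1, the master regulator gene of meiosis, had 1.21 and its target kinase gene IME2 0.584.

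Hypoxic and anaerobic cell wall genes had a median of 1.25 (13 genes). The cell wall mannoprotein genes TIR1, TIR2, TIR3 and TIR4 and ANB1, the hypoxic eIF5A gene, lay between 0.370 and 0.624. HEM13 (1.81), a heme synthesis gene, and MGA2 (2.26), a membrane-bound regulator gene, were the highest of the list. Genes for allantoin and other poor nitrogen sources had 1.24 (22 genes), from PUT4, the proline permease gene, at 0.303 to DAL81, a regulator gene, at 2.18. Without GAP1 (0.851) and DAL80 (0.579), which are W-strand genes of chromosome XI, the median was 1.50.

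Some regulons were spread over nearly the whole range, and their medians say little about single members. Iron regulon genes had a median of 1.50, with an interval that took in the median of all genes. FIT3, a cell wall mannoprotein gene of siderophore uptake, had 0.301 and the ferric reductase gene FRE3 0.399, whereas the activator genes AFT1 and AFT2 had 2.32 and 2.52. In the phosphate regulon the transporter gene PHO89 had 0.573 and the activator gene PHO4 2.45. Thiamine genes ran from THI72 at 0.338 to THI74 at 2.47. Amino acid synthesis genes under Gcn4 had a median of 2.02, and its lowest members were the arginine synthesis genes ARG1 at 0.492 and ARG3 at 0.565. Other arginine genes were near the list median, such as CPA1 at 1.94 and ARG8 at 2.05, and ARO1, of the shikimate pathway, had 2.70. Tricarboxylic acid cycle and respiration genes had 1.96, from NDE2 (0.363), an external NADH dehydrogenase gene, to ATP14 (2.60), an ATP synthase subunit gene.

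The remaining lists sat near the median of all genes or had few members. Ergosterol genes had 1.97 (ERG28 0.942 to ERG2 2.55), cell cycle genes 1.96 (CLB6 1.15 to FKH1 2.71), silencing factor genes 1.95 (ASF1 1.42 to SIR3 2.44), and haploid-specific and pheromone genes 1.93 (RME1 0.945 to STE7 2.71). The label MATa was set beside the mating genes. STE3, the a-factor receptor gene used by the opposite mating type, had 0.427, in the bottom 10%. STE2, the α-factor receptor gene of MATa cells, had 0.944, and MFA1 and MFA2, the a-factor genes, had 2.51 and 0.734. AGA2, on the same list, had 1.74. SAG1, the α-agglutinin gene of the opposite type, had 2.23. With 4 genes measured for MATa cells and 2 for the opposite type, the levels overlapped, and separation of these lists cannot be judged. PAU genes, 3 of 24 with a level, lay between 0.397 and 0.433. Of the subtelomeric COS genes 1 of 11 had a level, COS10 at 1.11, and of the 8 telomeric helicase genes none did. Flocculin and adhesin genes (3 of 8) ran from AGA1 at 0.945 to FLO8 at 2.07, and aryl alcohol dehydrogenase genes (3 of 5) from AAD10 at 0.457 to AAD14 at 1.78.

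Genes known only by a systematic name carried less of the mark than named ones. Their median was 1.67 over 354 genes, against 2.03 over 4761 genes with a standard name, a difference of -0.356 (-0.477 to -0.280). In the bottom 10% were 28.5% of the former and 8.25% of the latter. The measured share differed too: a level was present for 47.5% of annotated protein-coding genes without a standard name and for 90.5% of those with one. Names with a suffix had a median of 1.62 over 228 genes and a median length of 258 bp.

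By chromosome arm the medians lay close together beside the spread of genes within an arm. The SD of the 32 arm medians was 0.0896, whereas the median interquartile range within an arm was 0.550, and 2.91% of the sum of squares of the level lay between arms. The left arms of chromosomes II and XIII were highest, both at 2.11. Chromosome II left ran from ECM13 (0.316) to UBP13 (3.14). The right arm of chromosome XI was lowest at 1.68 (1.36 to 1.85; 87 genes), from YKR104W at 0.276 to PRP16, an RNA helicase gene of splicing, at 2.64. Next came IX right at 1.74 (1.47 to 2.12; 37 genes), from YPS6 (0.392) to SQT1 (2.58), and XI left at 1.86 (185 genes). The interval of IX right took in the median of all genes. On this arm 19 genes lay within 50 kb of the chromosome end, with a median of 1.49. Its annotated genes further in had 1.83. The part of the end in the low arm median was not tested. The highest and lowest arm differed by 0.429 (0.205 to 0.764). Without chromosome XI the difference was 0.374 (-0.0321 to 0.649), between II left and IX right. Both arms of such a pair were picked as the extremes, so the difference is above 0 by construction. The intervals do not allow for that choice, so whether they take in 0 decides nothing.

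**Figure D3:**
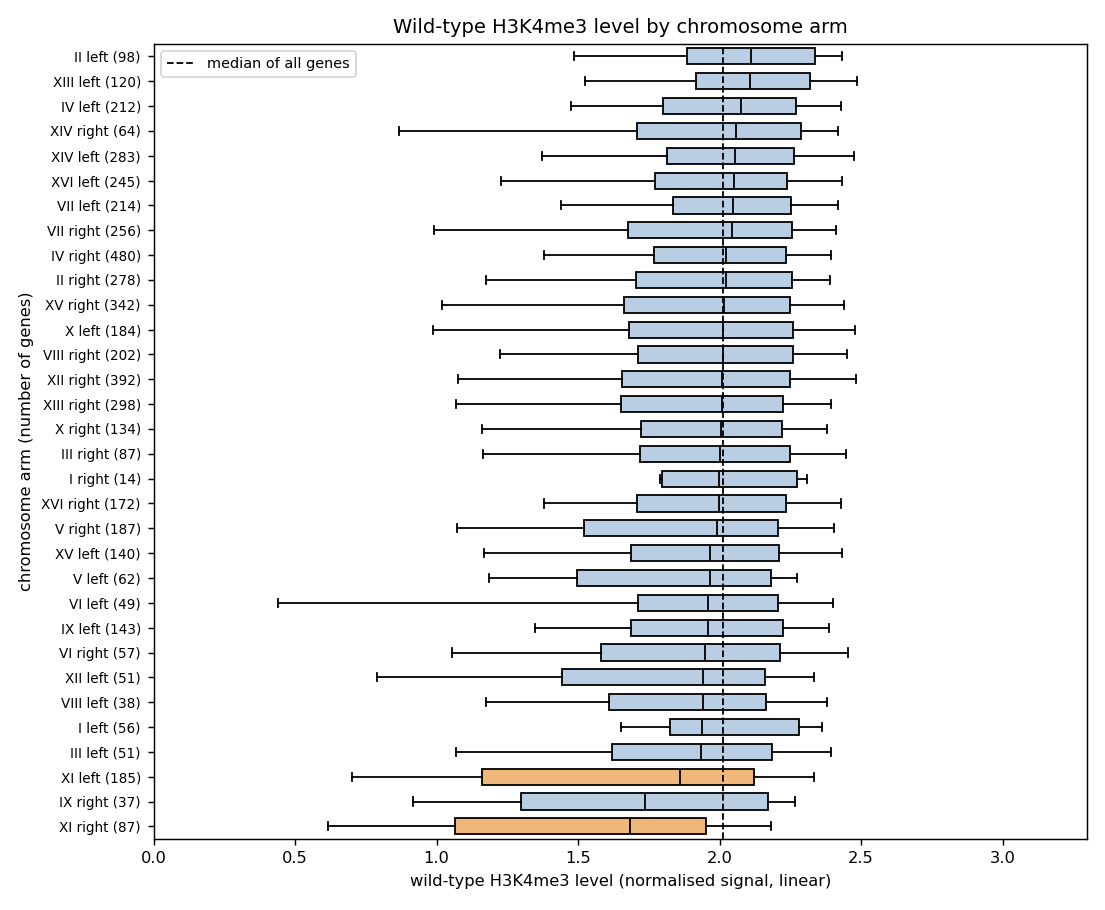
Wild-type H3K4me3 level (x axis, normalised signal, taken as linear) by chromosome arm (y axis, ordered by median). Boxes span the middle 50% of genes, and whiskers end at the outermost genes within the 10th to 90th percentile. The line in each box is the median, and chromosome XI is orange. The boxes of XI right and XI left begin at 1.06 and 1.16, lower than those of the other arms.

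Chromosome XI as a whole had a median of 1.77, and 23.2% of its 272 genes were in the bottom 10%. On the other chromosomes that share ran from 4.29% (chromosome I) to 15.1% (chromosome VI). The excess of low genes lay on a single strand and in a defined stretch, a pattern found by looking at the data. Systematic names end in W for genes on the Watson strand and in C for those on the Crick strand. Of the W genes of chromosome XI, the 37 that start left of 200 kb had a median of 2.10 and the 92 that start right of it 1.02 (0.784 to 1.20). The C genes had 1.995 left of that point (41 genes) and 1.85 right of it (92 genes). The latter interval, 1.73 to 1.92, lay below the median of all genes. On the other chromosomes pooled, W and C genes both had 2.02. Taken singly, the W median minus the C median was -0.361 (-0.724 to -0.113) on chromosome XI and -0.137 (-0.211 to -0.0307) on XV. It was 0.0694 (0.00392 to 0.121) on IV and 0.0771 (0.00415 to 0.193) on XVI. On the rest the interval took in 0.

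The change was abrupt. The last 10 W genes left of 200 kb had levels from 1.65 to 2.50, ending with CMC1 at 2.11, and the first 10 to the right, starting with PGM1 at 0.784, had 0.400 to 1.60. A level under 1.3 was found for 3 of 37 W genes on the left (8.11%) and for 58 of 92 on the right (63.0%). The stretch was not uniform. In 50-kb bins from 200 to 400 kb and from 500 to 650 kb, the median of W genes minus that of C genes was between -1.33 and -0.744. Between 400 and 500 kb the W median was higher, by 0.110 and 0.0719 in the bins concerned. There the W medians were 1.77 and 1.75. The C medians were 1.66 and 1.68, the lowest of any bin on the chromosome, so the W genes were not back near 2. Over all chromosomes 223 such bins had 5 or more genes on each strand, and 13 of them were on chromosome XI. Of the 9 lowest W-minus-C differences, 7 were on chromosome XI. The others were at 350 to 400 kb on chromosome II (-0.870) and 0 to 50 kb on chromosome XV (-0.808). The limit of 9 falls at a bin of chromosome XI and so favours that chromosome.

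**Figure D4:**
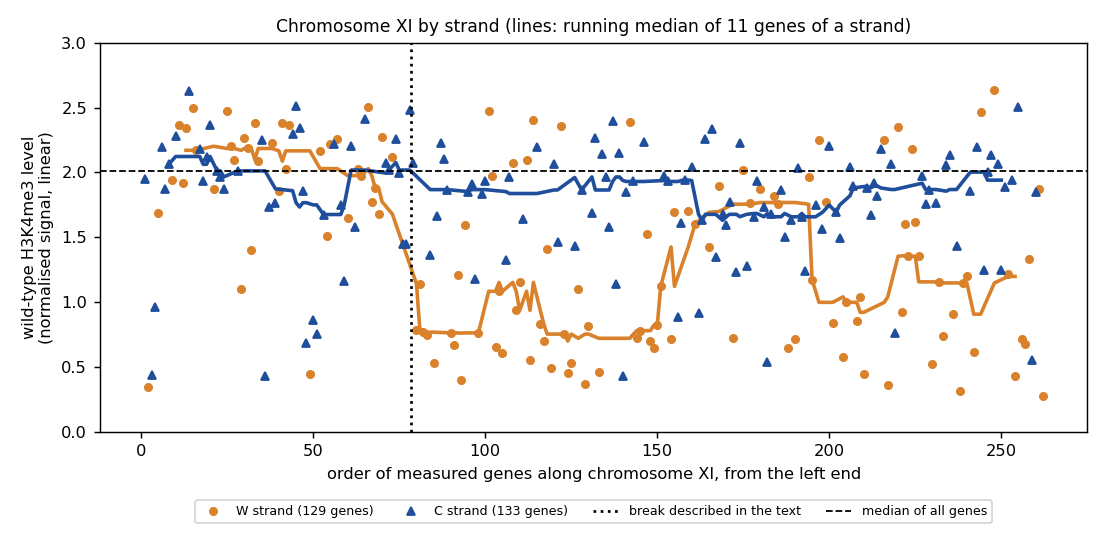
Wild-type H3K4me3 level (y axis, normalised signal, taken as linear) of the annotated genes of chromosome XI in order from the left end (x axis). W-strand genes are orange circles and C-strand genes are blue triangles. Lines are running medians of 11 genes of a strand, and the dotted line is the break. Both strands run near 2 left of the break, and right of it the orange line drops to about 1 or less, except for a middle stretch where the strands meet.

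The same W genes were also set beside their divergent neighbours, which is a description of the chosen stretch and not further support. In divergent pairs the upstream ends of a W and a C gene face each other. Right of 200 kb on chromosome XI, the W partner was lower in 30 of 46 pairs (65.2%), with a median difference of -0.638. On the other chromosomes it was lower in 629 of 1273 pairs (49.4%). The levels of both partners had a Spearman correlation of 0.013 in the former pairs and 0.257 in the latter, given as a description.

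The stretch, chosen for its low levels, also held the growth genes that stood apart from their lists. Of the 477 genes in the 10 upper lists, 3 were in the bottom 10%, and all 3 were W genes of chromosome XI right of 200 kb: MLP1 (0.712), TEF4 (0.831) and RPS21A (0.921). The other members there were TIF1 (1.35), RPC37 (1.77) and NUP133 (2.47). These 6 genes had a median of 1.14, against 2.26 for the other members of the same lists. The 10 lists were picked for high medians and the stretch for low levels. This contrast and the count of 3 are thus a description and not further support. Without them the lowest small-subunit ribosomal protein gene was RPS9A at 1.54, the lowest translation factor gene SUI1 at 1.69, the lowest polymerase gene RPB11 at 1.88 and the lowest pore gene NUP159. PRI2 (0.721), a primase gene, and MDH1 (0.553), the mitochondrial malate dehydrogenase gene, lie in the same stretch. The 92 genes were 1.76% of all genes but 48 of the 522 in the bottom 10%. The labels and headers do not state how the window of each gene was placed, and its part in this pattern was not tested, so the levels of these 92 genes, YKR104W among them, may not be comparable with the rest. Without them the median of all genes was 2.02.

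Position from the centromere went with small differences. In a systematic name such as YKR104W the number counts genes outward from the centromere along the arm. The median was 1.93 for numbers 1 to 5, 1.91 for 6 to 10 and 1.94 for 11 to 25. It was 1.99 for 26 to 50, 2.01 for 51 to 100, 2.03 for the next class up to 150, 2.01 from there to 200 and 2.04 beyond 200. The median of numbers 1 to 10 minus that of the rest was -0.0930 (-0.138 to -0.0372). With means in place of medians the difference was -0.0258, and with numbers 1 to 5 alone it was -0.0807 (-0.135 to 0.00426), and both intervals took in 0. The inner genes were lower than the rest of their arm on 19 of 32 arms. Among numbers 1 to 5, CIT3 (0.438), a citrate synthase isoform gene, was lowest and PRE3 (2.63), a proteasome subunit gene, was highest. Of these innermost genes 5.84% were in the top 10% and 7.14% in the bottom 10%, both less than the 10% of all genes.

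**Figure D5:**
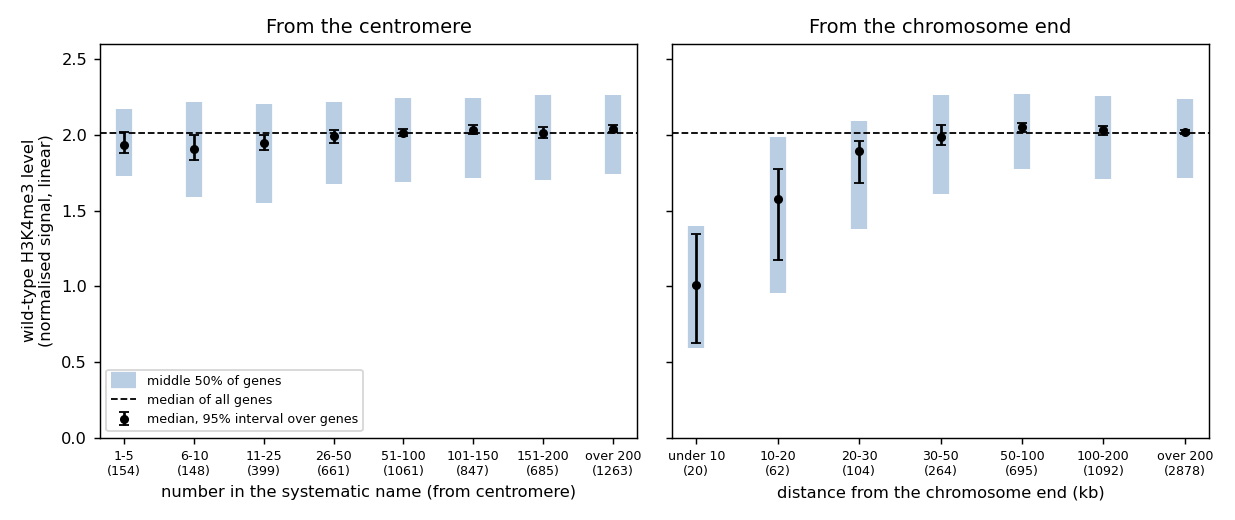
Median wild-type H3K4me3 level (y axis, normalised signal, taken as linear) by gene number from the centromere and by distance from the chromosome end (x axes). Points are medians over genes with their 95% order-statistic intervals, and blue bars are the middle 50% of genes. The dashed line is the median of all genes. The medians by gene number stay between 1.91 and 2.04, whereas those by distance climb from 1.01 under 10 kb to about 2 beyond 30 kb.

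Towards the chromosome ends the level fell much further. Genes within 10 kb of the outermost annotated gene end had a median of 1.01 (20 genes), those at 10 to 20 kb 1.58 (62 genes) and those at 20 to 30 kb 1.89 (104 genes). From 30 to 50 kb it was 1.99, from 50 to 100 kb 2.05, from 100 to 200 kb 2.03 and beyond 200 kb 2.02. The median within 20 kb minus that of the rest was -0.622 (-0.912 to -0.362). In the bottom 10% were 60.0% of genes under 10 kb and 30.6% of those at 10 to 20 kb. Of the 32 arms, 24 had a lower median within 50 kb of the end than inside. The measured share fell along with the level: 15.9% of annotated genes under 10 kb had a level, 49.2% at 10 to 20 kb and 87.7% beyond 200 kb. These ends are thus described by few of their genes. YKR104W (0.276) was lowest within 20 kb, and YOR389W (0.322) was lowest from 10 to 20 kb. VAC17, a vacuole inheritance gene, was highest at 2.82.

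Gene length went with the level mainly through the shortest genes, and less through the longest. In 5 equal classes of annotated length, the median was 1.91 for the shortest (78 to 672 bp) and 2.08 for the longest (2088 to 14733 bp), a difference of 0.165 (0.128 to 0.210). The classes between had 2.04, 2.03 and 2.002, so there was no steady rise. The interval of the longest class (2.06 to 2.10) lay above that of the class below it (1.97 to 2.03). Across 5115 genes the Spearman correlation of length and level was 0.122, and over the 4535 genes of 500 bp or more it was 0.0513. Both are descriptions over genes that share a library. HSP12 was lowest and ABF2 highest in the shortest class, and SIP4 lowest and UBP13 highest in the longest.

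Neighbouring genes had weakly related levels. Over 5083 pairs of adjacent measured genes the Spearman correlation was 0.146. It was 0.261 for 1337 divergent pairs, 0.114 for 2418 tandem pairs and 0.0819 for 1328 convergent pairs. For genes 2 places apart it was 0.0642 and for genes 20 apart 0.0202. Identical levels were shared by 103 genes in 51 groups, and in all 51 the genes lay on the same arm and strand with numbers within 2 of each other. MRP13 and RPL11B, for example, both had 2.22. Genes of such a group are not separate measurements.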

How the data were processed

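The level is the authors' normalised signal of H3K4me3 for each gene, per the file headers. The submitters' processing notes name Bowtie2, SAMtools, bedtools and the builds sacCer3 and ASM294v2. Tool versions and normalisation steps are not given in the labels or headers. Deposited levels were neither filtered nor given a pseudocount. Values were taken as linear since none is below 0, though a transformed scale could also have no value below 0. Read counts and depth are unknown, so their precision cannot be given.

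Names were matched to RefSeq R64, with 103 of 5218 left without an annotated gene. Coordinates are 1-based, from that annotation. The arm, number and strand were read from the systematic name. Distance from the end runs from a gene's middle to the outermost annotated gene end on its arm. Medians, order-statistic intervals and Spearman correlations were computed with Python 3.11.15, numpy 2.4.6, pandas 2.3.3 and SciPy 1.17.1. On simulated levels with known shifts, only differences of medians were checked, for a list, arms, centromere, chromosome ends and names. Intervals and correlations were not checked in this way.

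The members and lists were chosen with earlier results of these data known, and 5 misplaced genes were taken off the lists after matching. Named genes are the 15 highest and 15 lowest, the extremes of each list, of the highest and lowest arms, and of each position and length class, plus genes chosen after their values were seen to show a list's parts. The chromosome XI stretch was also chosen after seeing the data. Alternatives left out overlapping, identical, low, subtelomeric, chromosome IX, chromosome XI or unannotated genes, or changed the summary, length adjustment or class limits.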

Additional observations from a re-analysis of the deposited data

How the results depend on the processing

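Over 16 alternatives 413 values were recomputed. Of these, 392 moved by less than the spread used to judge them, 21 moved further, and none of the values whose interval left out 0 changed sign. Without genes below the 10th percentile the median of all genes was 2.06, the ratio of the 90th to the 10th percentile 1.61, the difference of systematic-only from standard names -0.188, that within 20 kb of a chromosome end -0.292, that of the longest from the shortest length class 0.115, and the Spearman correlation of neighbours 0.0768. With means in place of medians the centromere difference was -0.0258 and the length difference 0.221. The chromosome end difference was -1.01 within 10 kb and -0.342 within 30 kb, and the length difference was 0.269 with 10 classes; these follow from the choice of genes. List medians gave 305 of the values, with 14 changes of sign, all in lists whose interval took in 0. The lowest arm was IX right when chromosome XI or its W genes right of 200 kb were left out, both added after seeing the data, and XI right in the other alternatives run. The highest was II left or XIII left in all. No paired analysis was possible because there was 1 wild-type library. Promoter motifs, planned as a comparison, were not run because no promoter sequences were used here. Unknown depth limits how firmly any low level can be read.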

Other observations

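The level also went with the length of the upstream gap, a pattern looked for after other results were seen. Genes whose start lay 200 to 400 bp from the next annotated gene upstream had a median of 2.08 (1948 genes), and 4.21% were in the bottom 10%. Gaps of 400 to 600 bp gave 2.04, gaps of 600 to 1000 bp 1.95, gaps of 1000 to 2000 bp 1.85 and gaps of 2000 bp or more 1.75 (142 genes, 28.2% in the bottom 10%). Across 5111 genes the Spearman correlation of gap and level was -0.174, given as a description. At 200 to 400 bp, genes with a divergent neighbour had 2.14 (865 genes) and genes with a tandem neighbour 2.04 (1083 genes). Their intervals did not overlap, but both genes of a divergent pair can be counted over the same gap. Such genes are not independent, so the non-overlap is a description and not a test. From 1 bp to under 200 bp both kinds had 2.01. Genes with a gap under 1 bp, touching or overlapping the upstream gene, had 1.80 (37 genes, 24.3% in the bottom 10%).

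Genes within 500 bp of a tRNA gene had a median of 1.95 (199 genes), with 4.02% in the top 10% and 7.04% in the bottom 10%. Genes at 500 to 1000 bp had the same median of 1.95 (108 genes), with 12.0% in the top 10%, and those at 1000 to 2000 bp had 1.96. Genes more than 10 kb from a tRNA gene had 2.03.

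Runs of 10 neighbouring measured genes had medians from 0.501 to 2.50, and 90% of the 4827 overlapping runs lay between 1.62 and 2.24. The lowest run reached from ATF1, an alcohol acetyltransferase gene, to YOR389W on the right arm of chromosome XV (1046226 to 1076087), and it includes FIT3 (0.301). Of the 6 lowest runs that do not overlap, 4 were on chromosome XI, all of them right of 200 kb. These were TEF4 to YKL068W-A (0.792), ANR2 to TTI1 (0.971), BCH2 to UTH1 (1.02) and SRP40 to YKR104W (1.02). They lie in the stretch of low W genes already described, so they are not a separate finding. The caution on comparing the levels of those W genes with the rest applies to these runs too. The highest run, TFB3 to SDC1 on the right arm of chromosome IV (1383811 to 1399542), held 7 genes of the top 10% and also CMI8 at 0.953.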
